A study of Mus musculus with 2 samples.

Results

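The NRF2 pathway genes described here are Nfe2l2, Keap1, Nqo1, Txnrd1, Txn1, Srxn1, Prdx1, G6pdx, Slc7a11 and Osgin1. They are the transcription factor NRF2, its inhibitor KEAP1 and antioxidant targets outside glutathione metabolism and heme oxygenase, chosen by symbol, and they make up 10 of the 24054 genes in the deposited table of transcript levels. The study asked how loss of Pgrmc1, a heme-binding membrane protein that binds cytochromes P450, changes the mouse liver. Liver RNA came from male C57BL/6 mice of 8 to 12 weeks that were either wild type (WT) or Pgrmc1 KO (Pgrmc1 -/Y). The KO allele was made by Sox2-Cre deletion of loxP-flanked exons, so Pgrmc1 is missing from the whole body and not from the liver alone. RNA of 5 mice per genotype, 2.5 μg from each, was pooled into 1 library, which leaves 1 KO library and 1 WT library and no measure of the spread between mice.

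NRF2 is a transcription factor of the basic leucine zipper type that is kept low in resting cells because KEAP1 hands it to a CUL3 ubiquitin ligase. Electrophiles and oxidants modify cysteines of KEAP1, NRF2 escapes breakdown, and with a small MAF protein it binds antioxidant response elements in its target genes. In liver these targets detoxify quinones, reduce thioredoxin and peroxiredoxins, and supply NADPH. Control of NRF2 acts largely on the protein, and transcript levels of its targets are the usual readout of its activity.

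Levels are given in TPM, the abundance of a transcript scaled to its length and to the library total, which allows genes to be compared with each other. Where a pair of levels is given without names, the KO library comes first. A change is log2((KO TPM + 1)/(WT TPM + 1)), which understates the change of low genes, and a gene was tested where the mean of both libraries was at least 1 TPM, which left 11623 genes. The 95% intervals given beside changes are Clopper-Pearson intervals of the log2 ratio of the authors' means, from reads estimated for each library, and they cover counting error only. They come from the second deposited table, which is scaled slightly differently, so a small change in TPM can lie at or outside the edge of its interval. Pgrmc1 itself stood at 0.68 TPM in the KO library against 949.49 TPM in the WT library, a log2 change of -9.14. The estimated depth was 22086707 reads in KO and 29710376 in WT. The median log2 change of all genes tested was -0.01, and the 5th and 95th percentiles were -0.27 and 0.27.

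Hepatocyte markers were present at high levels, with Alb at 47241.79 TPM in the KO library against 49729.07 TPM in the WT library. The summed level of the 8 hepatocyte markers was 72737.3 TPM in KO and 76461.6 in WT, and 8 of 8 lay below 0 (6 of 8 after centring on the median gene). All 7 Kupffer cell markers lay above 0, with a summed level of 221.9 TPM in KO and 197.2 in WT. Of all genes tested, 45.8% lay above 0 and 53.8% below. Markers of stellate cells (198.0 and 219.5 TPM), liver endothelium (164.6 and 180.7) and cholangiocytes (62.0 and 67.0) were summed lower in KO, with 2 of 6, 0 of 7 and 1 of 4 tested members above 0 (2, 1 and 0 with the authors' means). Red cell markers summed to 1412.2 and 1428.8 TPM, with 2 of 5 above 0 (3 with the authors' means), and lymphocyte markers to 3.3 and 2.2 TPM, with 1 member tested (above 0). Single markers could differ more than the sums. At least 1.4-fold lower in KO were Lyve1 of the endothelium (11.47 and 17.94 TPM), Epcam of cholangiocytes (0.67 and 1.51) and Hbb-bs of red cells (41.29 and 77.14). These were named after their values were seen, and no tested marker was at least 1.4-fold higher. Past that fold were 1.02% of all genes tested (lower in KO) and 1.21% (higher in KO). Every marker on these lists had a level above 0 in both libraries. In bulk RNA, fewer cells of a type and less RNA per cell cannot be told apart, and the part of cell composition in the results below was not tested.

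The antioxidant response element has the core TGACNNNGC, where N is any base. The promoter windows of RefSeq (GRCm38.p6, 250 bases before to 50 after each start site) were searched for it on both strands. It was found in windows of 5 of the 10 genes, against 14.0% of all 27025 genes and 12.4% of all windows of that length. The genes were picked as known targets, so this share is a description of the list. The matches are shown because they fall on genes with different changes in the KO library, G6pdx having the largest and Prdx1 and Txnrd1 among the smallest. Each is printed 5′ to 3′ on the strand of its gene, with the core in capitals and 10 bases on either side.
G6pdx (chrX:74428919-74428947, minus strand): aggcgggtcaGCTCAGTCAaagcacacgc
Prdx1 (chr4:116685456-116685484, plus strand): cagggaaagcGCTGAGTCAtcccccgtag
Txnrd1 (chr10:82859104-82859132, plus strand): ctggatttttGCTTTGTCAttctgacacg
Srxn1 (chr2:152105542-152105570, plus strand): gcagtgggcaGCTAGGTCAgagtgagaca
Nfe2l2 (chr2:75704885-75704913, minus strand): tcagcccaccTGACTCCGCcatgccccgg

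The matches of G6pdx, Prdx1 and Txnrd1 begin 57, 133 and 92 bases before the RefSeq start site, and that of Nfe2l2 begins 240 bases before it. The Srxn1 match begins 29 bases after it, in an exon annotated as UTR. In the GENCODE annotation the G6pdx match also lies in a 5′ exon of G6pdx, on a transcript that starts further upstream, and within the overlapping gene Ikbkg. The Nfe2l2 match lies in an exon of another gene in that annotation. The Txnrd1 match belongs to 1 of 3 start sites listed for that gene. The core was read as its reverse complement in the genes other than Nfe2l2. The Prdx1 match overlaps TGANTCA, the AP-1 core, which 7.81% of all windows hold. In Nqo1, Txn1, Keap1, Slc7a11 and Osgin1 these letters were not found in the windows searched.

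Most NRF2 pathway transcripts stood at nearly the same level in both libraries, and G6pdx was the exception. Of the 9 genes that reached 1 TPM, 0 were at least 1.4-fold higher in KO (1.21% of all genes tested were) and 1, G6pdx, was at least 1.4-fold lower (1.02% of all genes tested were). The other 8 lay within 0.2 of 0 on the log2 scale. The median log2 change of the 9 was -0.02, beside -0.01 for all genes tested. The split was 2 above 0 (45.8% of all genes tested were) and 7 below (53.8% were), and it became 4 above and 5 below with the authors' means and 3 above and 6 below after centring on the median gene. Counting intervals lay below 0 for 3 genes (13.4% of all genes tested) and above 0 for 0 (11.7%), so that 3 of 9 did not hold 0, beside 25.1% of all genes tested. The tenth gene, Slc7a11, was too low to be tested.

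**Figure D1:**
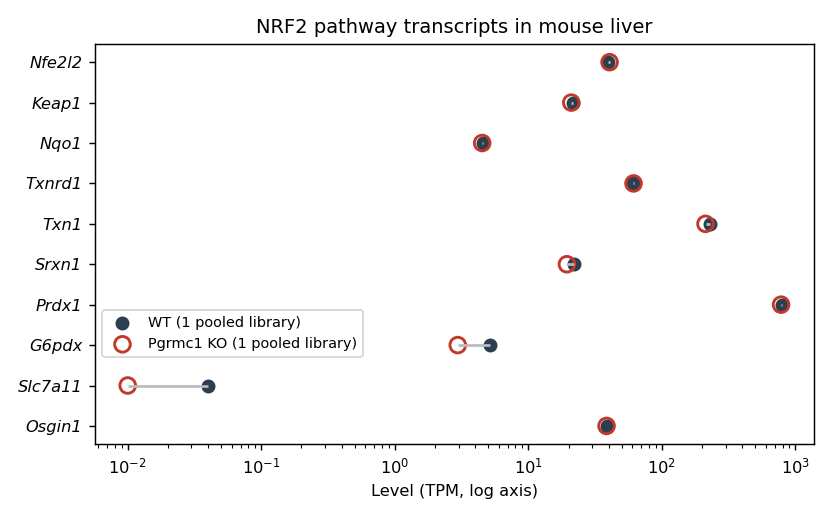
Level of each NRF2 pathway gene in TPM on a log axis, with the WT library as filled circles and the Pgrmc1 KO library as open circles. The circles coincide for most genes, from Nqo1 near 4.5 TPM to Prdx1 near 780 TPM, and separate for G6pdx (2.96 in KO, 5.18 in WT) and for the barely detected Slc7a11.

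The levels of these genes spread widely. Prdx1 was the most abundant, at the 99.5 percentile of all genes in WT and 172 times the level of Nqo1. Txn1 followed at the 98.0 percentile, then Txnrd1 (93.6), Nfe2l2 (90.8), Osgin1 (90.7), Srxn1 (84.9) and Keap1 (84.7). G6pdx (65.7) and Nqo1 (64.3) were far lower, and Slc7a11 stood at the 16.5 percentile. The summed level of the 10 genes was 1180.2 TPM in the KO library against 1210.1 TPM in the WT library, of which Prdx1 made up 66.1% and 65.2%. Neighbours in this order were close in several places, since Nfe2l2 and Osgin1 differed by less than 3 TPM in each library, and so did Srxn1 and Keap1.

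The regulators did not differ beyond counting error. Nfe2l2 (Entrez 18024, chromosome 2, 75675513 to 75704663), which encodes NRF2, was at 40.54 TPM in the KO library against 39.31 TPM in the WT library, a log2 change of 0.04 with an interval of -0.05 to 0.16. Keap1 (Entrez 50868, chromosome 9, 21229730 to 21239332), whose protein holds NRF2 for degradation, was at 20.96 TPM in the KO library against 21.50 TPM in the WT library, a log2 change of -0.04 (-0.16 to 0.09). Nfe2l2 was the higher of the pair in both libraries, 1.93 times Keap1 in KO and 1.83 times in WT. With 1313 and 1704 estimated reads for Nfe2l2, a log2 change above 0.16 or below -0.05 lies outside its interval.

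Nqo1 (Entrez 18104, chromosome 8, 107388225 to 107403205) encodes the quinone reductase that is often taken as the index gene of NRF2 activity. Its level was 4.51 TPM in the KO library against 4.58 TPM in the WT library. The libraries were almost level for this gene, with a log2 change of -0.02. Nqo1 rests on 87 reads in KO and 118 in WT, and its interval of -0.42 to 0.41 is the widest of the 9 genes. Differences of up to that size in either direction were not detectable at this depth.

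The thioredoxin genes included the small differences that exceeded counting error. Txnrd1 (Entrez 50493, chromosome 10, 82833951 to 82897724), the cytosolic selenoenzyme that passes electrons from NADPH to thioredoxin, was at 61.28 TPM in the KO library against 61.22 TPM in the WT library. The change was 0.00 on the log2 scale with an interval of -0.06 to 0.08, so that the libraries could not be told apart. Txn1 (Entrez 22166, chromosome 4, 57943373 to 57956411), thioredoxin itself, was at 212.01 TPM in the KO library against 228.59 TPM in the WT library. It was lower in KO by a small amount, with a log2 change of -0.11 and an interval of the ratio of means of -0.16 to -0.02.

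Prdx1 (Entrez 18477, chromosome 4, 116685599 to 116700000), a peroxiredoxin that removes hydrogen peroxide with electrons from thioredoxin, was at 780.05 TPM in the KO library against 789.11 TPM in the WT library. Its interval, -0.03 to 0.03 on 13704 and 18502 reads, was the narrowest and held 0. Srxn1 (Entrez 76650, chromosome 2, 152105524 to 152111376), the sulfiredoxin that repairs over-oxidised peroxiredoxin, was at 19.43 TPM in the KO library against 21.80 TPM in the WT library. It was lower in KO with a log2 change of -0.16, at the 14.6 percentile of all genes tested, and its interval was -0.29 to -0.02. With intervals at 99% in place of 95%, G6pdx alone of the 9 genes kept an interval below 0.

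**Figure D2:**
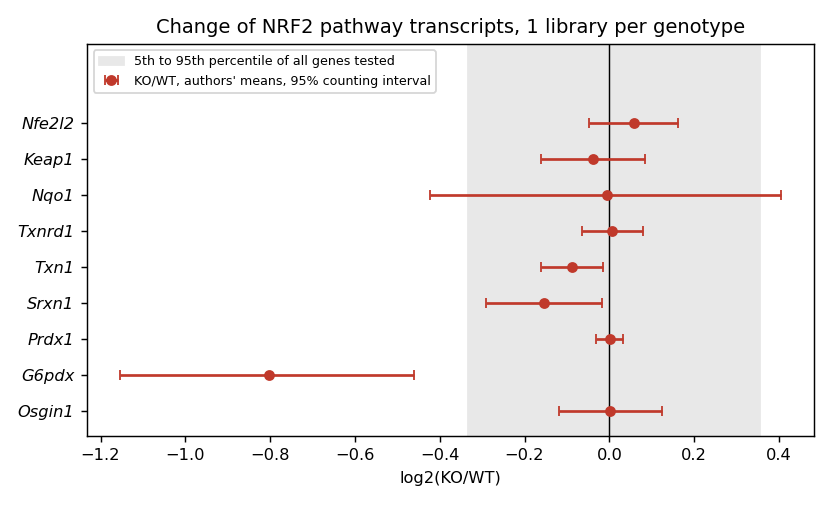
log2(KO/WT) of the authors' means for the 9 NRF2 pathway genes with reads in both libraries, with 95% counting intervals as bars and the 5th to 95th percentile of all genes tested as a grey band. G6pdx lies at -0.80, left of the band with its whole interval, while the other 8 points lie within the band.

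G6pdx (Entrez 14381, chromosome X, 74409483 to 74428880) encodes glucose-6-phosphate dehydrogenase, which opens the pentose phosphate pathway and supplies cytosolic NADPH. Its level was 2.96 TPM in the KO library against 5.18 TPM in the WT library. The KO library was 42.9% lower in TPM. The log2 change was -0.64, at the 0.43 percentile of all genes tested, so fewer than 1 in 100 genes had a lower value. Without the added 1 TPM the difference was larger, with a log2 ratio of the authors' means of -0.80 and an interval of -1.15 to -0.46. That is 1.74-fold higher in WT, with bounds of 1.38 and 2.22, on 101 reads in KO and 238 in WT. Of the 3489 genes with a mean between 2 and 8 TPM, the range that holds G6pdx, 1.52% were at least 1.4-fold lower in KO.

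Reads from other genes were looked at for G6pdx because copies and overlaps exist. Its retrogene G6pd2 was at 0.05 TPM in the KO library against 0.04 TPM in the WT library, and 0.195% of the 100-base windows of G6pdx transcripts also occur in G6pd2. Ikbkg, which encodes the NF-κB regulator NEMO and spans G6pdx on the opposite strand, was at 23.33 TPM in the KO library against 24.77 TPM in the WT library, a log2 change of -0.08 (-0.16 to -0.00). It was named after its value was seen. The library kit keeps strand, but the strand setting used in counting is not given in the sources used here, and the part of Ikbkg reads in the G6pdx value was not tested. Of the other members, Prdx1 shares 0.613% of its windows with 2 genes and the remaining 8 share 0.

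**Figure D3:**
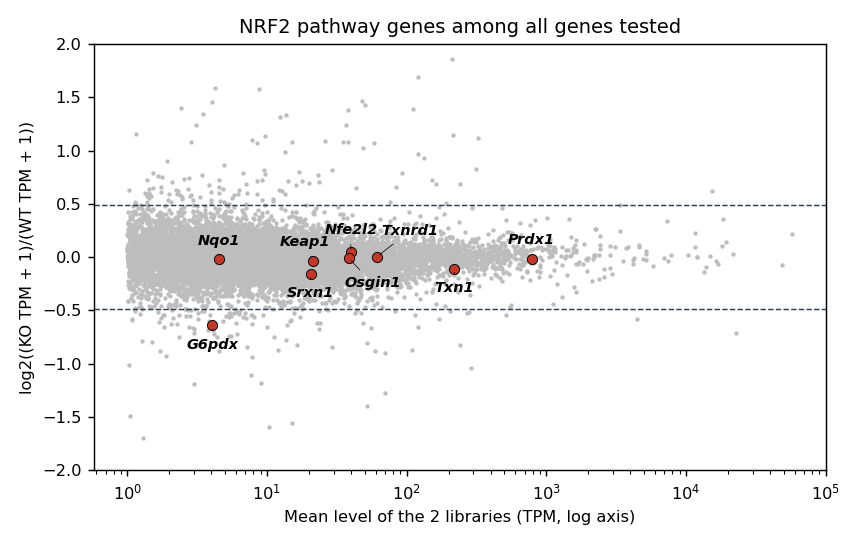
log2((KO TPM + 1)/(WT TPM + 1)) against the mean level of both libraries on a log axis for all genes tested, in grey, with 19 genes beyond 2 on either side left out, and with the 9 tested NRF2 pathway genes in red. Dashed lines mark a 1.4-fold difference, and G6pdx is the red point below the lower line.

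Osgin1 (Entrez 71839, chromosome 8, 119425882 to 119446257), a growth inhibitor induced by oxidative stress, was at 38.48 TPM in the KO library against 38.81 TPM in the WT library. The change of -0.01 on the log2 scale, with an interval of -0.12 to 0.12, leaves the libraries indistinguishable for this gene. Slc7a11 (Entrez 26570, chromosome 3, 50364936 to 50499087), the cystine carrier xCT, was at 0.01 TPM in the KO library against 0.04 TPM in the WT library. It had 0 estimated reads in KO, which allows up to 3, and 5 in WT. The upper bound of its ratio interval was 0.56 on the log2 scale, so neither a lower nor a higher level in KO can be told from counting error. Slc3a2, the heavy chain that carries Slc7a11 to the cell surface, was named after its value was seen and stood at 17.93 TPM in the KO library against 19.88 TPM in the WT library, a log2 change of -0.14 (-0.28 to 0.02).

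Among transcripts of the proteins that turn NRF2 over or share its DNA sites, 9 of 15 had a counting interval that held 0, and Bach1, Mafg and Sqstm1 were among the 6 whose interval lay below 0. Over all genes tested 13.4% of intervals lay below 0. None of the 15 had an interval above 0, beside 11.7% of all genes tested. In either direction, 0 passed 1.4-fold (1.21% of all genes tested were higher and 1.02% lower). The log2 change lay below 0 for 14 of the 15 (53.8% of all genes tested), or 12 with the authors' means or after centring. Their median was -0.08, beside -0.01 for all genes tested and -0.08 for the 8 hepatocyte markers, of which 8 lay below 0. The part of hepatocyte RNA in these values was not tested. The largest difference was that of Bach1, a repressor that competes with NRF2 for response elements, at 16.24 TPM in the KO library against 20.56 TPM in the WT library (log2 change -0.32, interval -0.43 to -0.23). Mafg, a small MAF partner of NRF2 named after its value was seen, was at 25.41 TPM in the KO library against 31.67 TPM in the WT library (-0.31, interval -0.46 to -0.14). Both are lower in KO by more than counting error, at the 3.39 and 3.79 percentiles of all genes tested. Nfe2l1, a relative of NRF2, was the highest of those with at least 10 TPM, at 41.12 and 41.20 TPM, with a change of -0.00. Sqstm1, the autophagy receptor that sequesters KEAP1 and is itself an NRF2 target, was at 279.81 TPM in the KO library against 314.57 TPM in the WT library (-0.17, interval -0.20 to -0.11), and it too was named after its value was seen.

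The wider thioredoxin family showed no common direction. The 16 other genes included the mitochondrial thioredoxin system, the other peroxiredoxins, sestrins and methionine sulfoxide reductases. Of these, 8 lay above 0 (45.8% of all genes tested did) and 8 below (53.8%), or 10 and 6 with the authors' means. In either direction, 0 passed 1.4-fold (1.21% of all genes tested were higher and 1.02% lower), and the median was 0.01. Intervals lay above 0 for 2 of the 16 (11.7% of all genes tested) and below 0 for 2 (13.4%). Txnip, which binds and inhibits thioredoxin, was lowest at 52.56 TPM in the KO library against 59.35 TPM in the WT library (-0.17, interval -0.25 to -0.08). Sesn3, a sestrin, was the highest of those with at least 10 TPM, at 14.81 and 13.45 TPM (0.13, interval -0.04 to 0.34).

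Among the other NADPH supply genes, 7 of 8 lay below 0 (53.8% of all genes tested did). The median log2 change was -0.10, beside -0.01 for all genes tested and -0.08 for the 8 hepatocyte markers. The part of hepatocyte RNA in these NADPH genes was not tested. In either direction, 0 of the 8 passed 1.4-fold (1.21% of all genes tested were higher and 1.02% lower). Me1, cytosolic malic enzyme, was lowest, at 122.25 TPM in the KO library against 153.94 TPM in the WT library (-0.33, interval -0.37 to -0.27). Pgd, the dehydrogenase that follows G6pdx in the pentose phosphate pathway and was named after its value was seen, was at 18.92 TPM in the KO library against 22.80 TPM in the WT library (-0.26, interval -0.41 to -0.10). Pgls, which encodes the lactonase acting between G6pdx and Pgd, was at 52.32 TPM in the KO library against 54.22 TPM in the WT library (-0.05, interval -0.19 to 0.14). The intervals of Tkt, Taldo1 and Rpia, enzymes of the non-oxidative branch, also held 0, with log2 changes of -0.07, -0.04 and -0.18. These 4 genes too were named after their values were seen. H6pd, the glucose-6-phosphate dehydrogenase of the endoplasmic reticulum, was the 1 gene above 0, at 197.26 TPM in the KO library against 181.58 TPM in the WT library (0.12, interval 0.10 to 0.17). Its level was 66.6 times that of G6pdx in KO and 35.1 times in WT. Intervals lay below 0 for 3 of the 8 genes (13.4% of all genes tested) and above 0 for 1 (11.7%).

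Xenobiotic NRF2 targets were evenly split, with 7 of 14 tested genes above 0 (45.8% of all genes tested) and 7 below (53.8%). The split was 8 and 6 after centring or with the authors' means. In either direction, 0 passed 1.4-fold (1.21% of all genes tested were higher and 1.02% lower), and the median was 0.00. Intervals lay above 0 for 3 (11.7% of all genes tested) and below 0 for 3 (13.4%). Htatip2 was highest, at 26.43 TPM in the KO library against 23.85 TPM in the WT library (0.14, interval -0.06 to 0.32). Ugdh, which makes UDP-glucuronic acid for conjugation, was the lowest of those with at least 10 TPM, at 103.16 and 114.84 TPM (-0.15, interval -0.21 to -0.08). Cbr3, the gene of this list that was not tested, was named after its value was seen and stood at 0.57 TPM in the KO library against 0.64 TPM in the WT library.

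Glutathione genes and heme oxygenase, the NRF2 targets left out of the 10, had a lower median than the genes described above. Of 13 tested, 12 lay below 0 (11 with the authors' means), beside 53.8% of all genes tested. The median log2 change was -0.11, beside -0.01 for all genes tested and -0.08 for the 8 hepatocyte markers. The part of hepatocyte RNA in these 13 genes was not tested. At least 1.4-fold lower were 2 (1.02% of all genes tested were), and 0 were at least 1.4-fold higher (1.21% were). Intervals lay below 0 for 4 (13.4% of all genes tested) and above 0 for 1 (11.7%). Gstm3, a glutathione transferase, was at 42.90 TPM in the KO library against 68.62 TPM in the WT library (-0.67, interval -0.80 to -0.52). Gsta1 was at 5.18 TPM in the KO library against 7.73 TPM in the WT library (-0.50, interval -1.11 to -0.07). Other genes hold 80.6% of the 100-base windows of Gsta1 and 13.8% of those of Gstm3, so reads can be divided between them and their copies. Gstm1, named after its value was seen, was at 948.56 TPM in the KO library against 1291.00 TPM in the WT library (-0.44, interval -0.46 to -0.40), short of 1.4-fold. Hmox1, the inducible heme oxygenase, also named after its value was seen, was at 14.74 and 17.77 TPM (-0.25, interval -0.47 to -0.04). Mgst1 was highest, at 5215.93 and 5102.50 TPM (0.03, interval 0.04 to 0.07). Gclc and Gclm, the subunits of the enzyme that begins glutathione synthesis, were named after their values were seen. Gclc was at 166.12 TPM in KO and 172.19 in WT and Gclm at 103.39 and 105.06, and both intervals, -0.08 to 0.00 and -0.08 to 0.06, held 0. Gpx2, not tested and named after its value was seen, was at 0.08 TPM in the KO library against 0.30 TPM in the WT library.

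Antioxidant enzymes that are made in liver at rest gave a median of -0.01 over 7 genes, beside -0.01 for all genes tested. Of the 7, 2 lay above 0 (45.8% of all genes tested) and 5 below (53.8%). The split was 4 above and 3 below with the authors' means and after centring. In either direction, 0 passed 1.4-fold (1.21% of all genes tested were higher and 1.02% lower). Intervals lay above 0 for 2 of the 7 (11.7% of all genes tested) and below 0 for 1 (13.4%). Gpx1, glutathione peroxidase, was highest at 1587.68 TPM in the KO library against 1497.93 TPM in the WT library (0.08, interval 0.08 to 0.13), and Sod3, extracellular superoxide dismutase, lowest at 10.64 and 11.15 TPM (-0.06, interval -0.28 to 0.17). Over these 6 lists together, 0 of 73 tested genes were at least 1.4-fold higher in KO (1.21% of all genes tested were). At least 1.4-fold lower were 2 (1.02% of all genes tested were). Counting intervals lay below 0 for 19 of the 73 (13.4% of all genes tested) and above 0 for 9 (11.7%). The log2 change lay above 0 for 20 and below 0 for 53 (53.8% of all genes tested), or 28 and 45 with the authors' means and 26 and 47 after centring, and the median was -0.04, beside -0.01 for all genes tested.

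**Figure D4:**
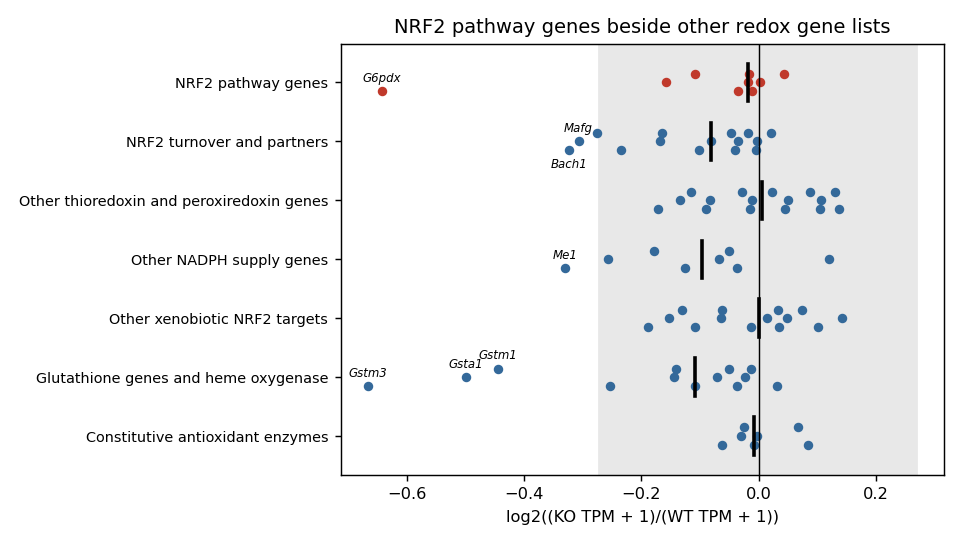
log2((KO TPM + 1)/(WT TPM + 1)) of each tested gene in the NRF2 pathway (red) and in 6 other redox gene lists (blue), with black bars for list medians and a grey band for the 5th to 95th percentile of all genes tested. Most points fall inside the band, and G6pdx, Gstm3, Gsta1 and Gstm1 lie farthest to the left.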

How the data were processed

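Members and gene lists were chosen with earlier results of these data known. The authors sequenced each pooled library as paired 100-base reads from a stranded total RNA kit, aligned them to mm10 with RSEM 1.2.09 and Bowtie (versions from the submitters' processing notes), and deposited TPM as posterior means for each gene. The summed TPM was 1005325 for KO and 994702 for WT, so the deposited values carry a scaling between libraries. The gene annotation is not given in the sources used here. A second deposited table holds, for 16318 genes, the authors' means from EBSeq, a signal of estimated reads divided by a size factor. Its posterior probabilities and fold changes are the authors' own comparison and were not used.

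The value of 1 read, taken as the most frequent low value of the authors' means, was 1.1622 in KO and 0.8605 in WT. Within a tolerance of 0.02, 78.6% and 75.0% of values above 0 were whole reads, since RSEM divides reads between genes. For that reason no count test was run beyond the counting intervals, which treat rounded reads as counts. No p-value was computed, because each genotype has 1 library. Interval bounds rest on estimated reads rounded to whole numbers, and reads without molecular identifiers are not independent molecules. Functions were tested on simulated data.

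The rule for named genes was: all 10 members, Pgrmc1, the genes past 1.4-fold and the highest and lowest with at least 10 TPM in each other list, near-identical copies, and the most abundant gene of each marker list. Genes outside it are marked in the text as named after their values were seen. Of the marker genes, Clec4f was at 69.41 TPM in KO and 60.77 in WT, Dcn at 119.52 and 137.03, Clec4g at 48.67 and 52.15, Spp1 at 57.81 and 61.41, Hba-a1 at 683.20 and 600.28, and Cd79b at 1.38 and 0.78. Alternatives were another pseudocount, other filters, fold thresholds and interval widths, centring on the median gene, the authors' means and rescaling without the 50 most abundant genes. Coordinates are RefSeq genes on GRCm38.p6, the mm10 assembly. Tables were computed in Python 3.11.15 with scipy 1.17.1, pandas 2.3.3 and numpy 2.4.6, and plots were drawn with matplotlib 3.10.9.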

Additional observations from a re-analysis of the deposited data

How the results depend on the processing

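No paired analysis was possible because the design holds 1 library for each genotype. The log2 change of Pgrmc1 was -10.25 with a pseudocount of 0.1 TPM and -10.44 with the authors' means. With the authors' means, 4 NRF2 pathway genes lay above 0. The count of genes at least 1.4-fold lower went from 1 to 0 with a minimum of 10 TPM, which leaves G6pdx out, and with a threshold of 2-fold it was 0. With intervals at 99%, 1 gene lay below 0. The cause of the moves with another pseudocount or with the authors' means was not tested. Of the 73 values recomputed for counts, medians and Pgrmc1, the 6 given above moved. The other 67 stayed within 1.5 times the count or within counting error, which for a median was that of a typical single gene. The same held for 37 of 37 values of single members, G6pdx summed with G6pd2 included. A change of sign within that margin counted as staying. The median of the antioxidant enzymes made at rest was -0.01, and 0.01 with the authors' means. With the KO level of Slc7a11 set to the 3 reads that 0 allows, an alternative chosen after seeing the data, the median of all 10 genes was -0.03, as it was without a filter on low values. Depth limits Nqo1, G6pdx and Slc7a11, and pooling into 1 library per genotype limits what can be said of all 10 genes, G6pdx included.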

Other observations

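G6pdx and Pgrmc1 both lie on chromosome X, 37.8 Mb apart. This was looked at after the value of G6pdx was seen. Of the 326 chromosome X genes tested besides these, 192 lay below 0 (53.8% of all genes tested), with a median log2 change of -0.02. Of the 326, 5 were at least 1.4-fold lower in KO (1.02% of all genes tested were) and 1 was at least 1.4-fold higher (1.21% were). With G6pdx counted in, it ranked 3 from the lowest of 327. Of the 8 nearest tested genes, 4 on each side of G6pdx, 5 lay below 0 and 0 passed 1.4-fold in either direction. They ran from Mpp1, a membrane scaffold protein of red cells, at 16.37 TPM in the KO library against 18.93 TPM in the WT library (log2 change -0.20, interval -0.36 to -0.04), to Lage3 at 21.33 and 16.44 TPM (0.36, interval 0.09 to 0.71).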
